A study of Mus musculus with 96 samples.

Results

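A set of 7 genes that encode subunits of the receptors for GABA, Gabra2, Gabra3, Gabra5, Gabrb1, Gabrg1, Gabbr1 and Gabbr2, were examined in 96 single neurons from the mouse preoptic area, the part of the hypothalamus best known for setting body temperature. They are 7 of the 24054 genes in the count table and were chosen by name, with earlier results of these data known. All neurons came from C57BL/6N mice aged 2 to 3 months; each was recorded by whole-cell patch clamp, drawn into a glass pipette, and its RNA was amplified by Smart-seq2 and sequenced. The labels give no transgene, drug or other treatment, and sort 78 cells by their response to temperature into 21 warm-sensitive, 5 cold-sensitive, 10 silent sensitive, 24 insensitive and 18 silent insensitive neurons. A further 18 cells are labelled as of unknown class and entered no comparison. Since no label names an animal, each class counts as 1 sample: no test was made, no p-value is given, and every comparison describes these cells only. The intervals are exact 95% intervals that treat cells, or reads, as independent draws and cover counting error only.

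GABA is the main inhibitory transmitter of the hypothalamus and acts through receptors of contrasting design. GABA-A receptors are pentameric chloride channels, usually built from alpha, beta and gamma subunits, and their alpha and gamma subunits set the pharmacology and location of the channel. The GABA-B receptor is an obligate pair of G protein-coupled subunits: the product of Gabbr1 binds GABA, while that of Gabbr2 carries the first to the cell surface and engages the G protein, which lowers calcium entry and opens potassium channels.

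The genes lie on 5 chromosomes of the mm10 build in the GENCODE M21 annotation. Gabrg1 (chr5:70751047-70842617, minus strand), Gabra2 (chr5:70957597-71095849, minus strand) and Gabrb1 (chr5:71658113-72149037, plus strand) are near neighbours. Gabra5 is at chr7:57407672-57510059 (minus strand), Gabra3 at chrX:72432681-72656848 (minus strand), Gabbr1 at chr17:37045966-37075067 (plus strand) and Gabbr2 at chr4:46662305-46991873 (minus strand). Counts cover the exons of each gene. Gabrb1 shares 46 exonic bases, and Gabra5 148, with a gene of the opposite strand, and whether counting used strand is not stated, so a small share of their reads could belong to that gene. The other 5 members share no exonic bases with another gene.

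RefSeq promoter windows were found for all 7 members. The windows of Gabra3, Gabbr1 and Gabbr2 are shown because the results below turn on these genes; each holds 250 bases before to 50 bases after the annotated start, on GRCm38.p6 and read 5′ to 3′ on the strand of the gene. Capitals mark matches, on either strand, to 4 motifs: the GC box (GGGCGG or CCGCCC), the TATA box (TATAAA or TTTATA), the CCAAT box (CCAAT or ATTGG) and the cAMP response element (TGACGTCA).
Gabra3 (chrX:72656758-72657057, minus strand): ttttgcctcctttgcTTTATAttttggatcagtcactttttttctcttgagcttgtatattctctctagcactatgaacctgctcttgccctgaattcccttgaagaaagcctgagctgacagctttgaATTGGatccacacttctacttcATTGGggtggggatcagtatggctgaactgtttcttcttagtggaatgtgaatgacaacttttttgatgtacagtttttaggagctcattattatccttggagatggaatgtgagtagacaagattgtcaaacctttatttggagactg
Gabbr1 (chr17:37045716-37046015, plus strand): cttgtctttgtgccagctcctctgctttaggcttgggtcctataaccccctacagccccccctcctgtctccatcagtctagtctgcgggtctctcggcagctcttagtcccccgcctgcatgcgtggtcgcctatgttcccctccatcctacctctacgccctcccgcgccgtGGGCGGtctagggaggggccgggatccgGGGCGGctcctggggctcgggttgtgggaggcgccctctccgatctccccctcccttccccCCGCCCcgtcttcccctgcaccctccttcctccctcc
Gabbr2 (chr4:46991665-46991964, minus strand): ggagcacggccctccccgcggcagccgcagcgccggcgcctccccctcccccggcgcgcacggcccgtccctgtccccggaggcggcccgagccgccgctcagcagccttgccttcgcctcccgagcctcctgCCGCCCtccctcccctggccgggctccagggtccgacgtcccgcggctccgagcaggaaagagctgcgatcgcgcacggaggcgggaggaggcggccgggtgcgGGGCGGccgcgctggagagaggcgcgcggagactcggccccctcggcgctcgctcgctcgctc
The Gabra3 window shown is 39.3% G or C with 0 CG pairs, and holds 1 TATA box and 2 CCAAT boxes. Gabra3 has another window, not shown (chrX:72656870-72657169), at 43% G or C with 0 CG pairs and the same motif counts. The Gabbr1 window is 67.3% G or C with 18 CG pairs and 3 GC boxes, and the Gabbr2 window is 80.3% G or C with 46 CG pairs and 2 GC boxes. The median of the 32851 windows of this length was 52.7% G or C and 7 CG pairs. A GC box stood in 35.7%, a TATA box in 13.6%, a CCAAT box in 37.4% and the cAMP response element in 1.79% of those windows. These matches are descriptions of the sequence only.

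Each subunit gene passed 10 CPM in a minority of the neurons. Values are CPM (counts scaled to a common total of 1000000 per cell), and a gene is called detected in a cell at 10 CPM or more. Gabbr1 was detected in 43 of 96 cells (44.8%, interval 34.6 to 55.3%), Gabra2 in 40 (41.7%) and Gabrb1 in 38 (39.6%). Gabra5 and Gabrg1 were detected in 27 cells each (28.1%), and Gabra3 and Gabbr2 in 17 each (17.7%, 10.7 to 26.8%). At 1 count or more the shares were larger, from 34.4% of cells for Gabra3 to 65.6% for Gabra2 and 75% for Gabbr1. The values fell into 2 ranges with little between them. Of the 672 values, 321 were at 0 and 130 were above 0 but under 5 CPM; 12 lay from 5 to under 10 CPM and 17 from 10 to under 20 CPM; 77 lay from 20 to under 100 CPM and 115 at 100 CPM or more. The limit of 10 CPM therefore passed through a thinly filled range.

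Among the cells in which it was detected, Gabra2 had a median of 241.6 CPM, Gabrb1 183.7, Gabrg1 141.4, Gabbr2 89.1, Gabra3 84.5, Gabbr1 62.2 and Gabra5 60.1 CPM. Levels of different genes can be compared only per length. Over the summed counts of all 96 cells, Gabra2 stood at 15.1 CPM per kb of exon, Gabra5 at 12.1, Gabrg1 at 8.51, Gabbr1 at 8.46, Gabra3 at 8.25, Gabrb1 at 6.5 and Gabbr2 at 3.11 CPM per kb. On this scale the partner subunits of the GABA-B receptor were the fourth and the last of the 7.

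**Figure D1:**
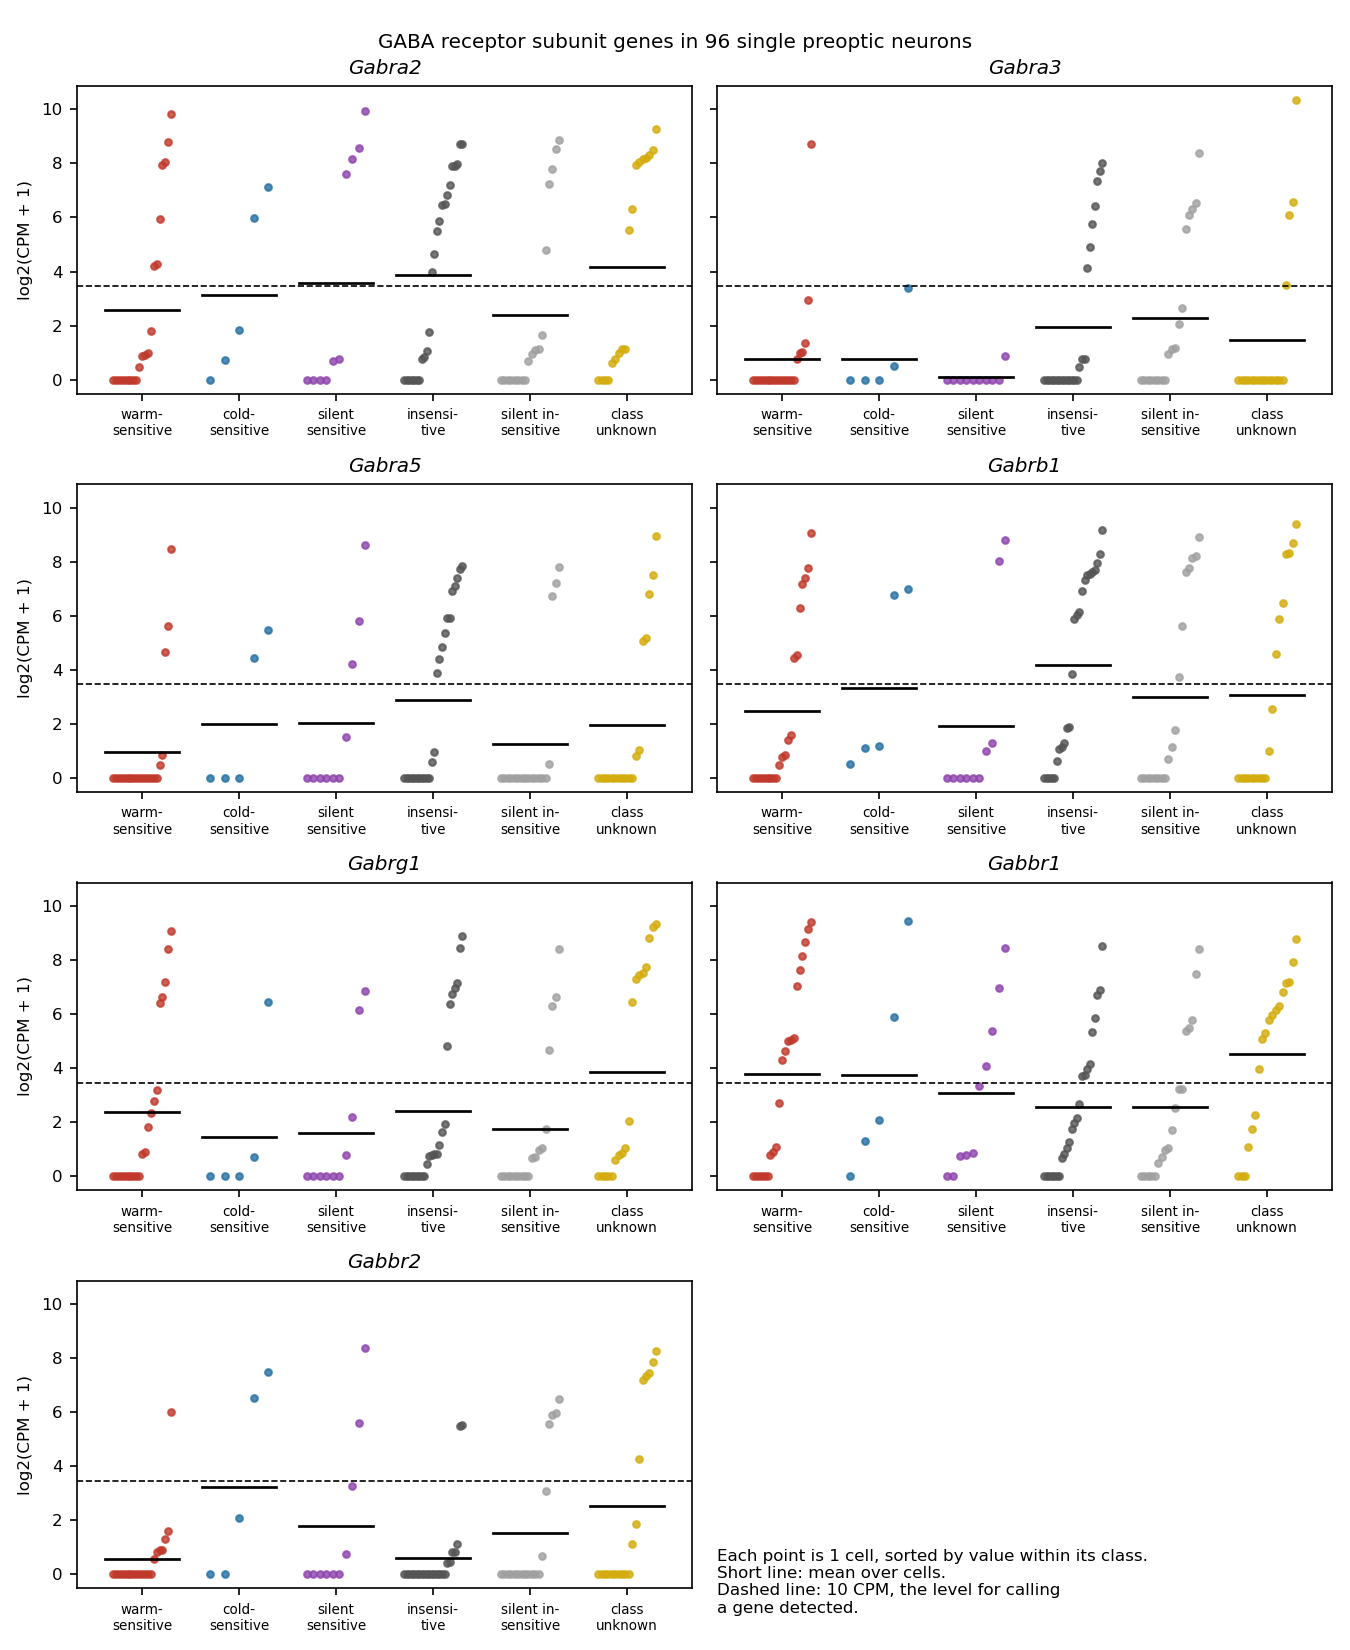
Level of each of the 7 subunit genes in every cell, as log2(CPM + 1), by the temperature class of the labels; each point is 1 of 96 cells, the short line is the mean over the cells of a class and the dashed line is 10 CPM. Most values are at or near 0 or well above the dashed line, and every class that holds detected cells also holds cells at or near 0.

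Depth and RNA content differed between classes and touch every comparison below. Total counts ran from 465167 to 3660726 per cell (median 1279600). Rn45s, the precursor of ribosomal RNA, took a median share of counts of 67.7% in warm-sensitive cells, 56.1% in cold-sensitive cells, 61.8% in silent sensitive cells, 45.4% in insensitive cells and 55% in silent insensitive cells. Genes with any count had a median of 3244 in warm-sensitive cells, 4645 in cold-sensitive cells, 3230 in silent sensitive cells, 4022 in insensitive cells and 3668.5 in silent insensitive cells. Eligible genes are those detected in 25% or more of the cells of either group, with a minimum of 3 cells. Most of them were lower in sensitive cells: the median eligible gene differed by -0.98 between all 36 sensitive and all 42 insensitive cells, by -1.36 between warm-sensitive and insensitive cells, by -0.52 between cold-sensitive and insensitive cells and by -0.65 between silent sensitive and silent insensitive cells. Differences are of mean log2(CPM + 1), and below they are given as such and then relative to this median gene. A gene read in few cells has means near 0 in both groups, so its difference stays near 0 and lies above a median gene that is below 0.

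The labelled neurons carried neuronal RNA: all 12 pan-neuronal markers were detected in each class, and every cell had at least 4 of them. The sum of these markers was lower in sensitive cells. Its median was 2214.5 CPM for the warm-sensitive class against 5207.8 CPM for the insensitive one, 4799.7 CPM for the cold-sensitive class, and 2788.8 CPM for silent sensitive against 4346.1 CPM for silent insensitive cells. The part of this in the members' differences was not tested. Markers of other cells were present as well. Summed astrocyte markers (10 of 10 detected in both) ran from 1.27 to 5062 CPM in sensitive and from 2.65 to 7277 CPM in insensitive cells. Summed microglia markers (10 of 10 in both) ran from 4.51 to 24549 CPM in sensitive and from 3.40 to 21028 CPM in insensitive cells. Oligodendrocyte markers (8 of 9 in sensitive cells, Mog at 0, and 9 of 9 in insensitive cells) reached 20502 CPM in sensitive and 2738 CPM in insensitive cells. Endothelial markers stayed within 18.3 CPM in sensitive and 21.05 CPM in insensitive cells, with 3 of 5 at 0 in each group (Cldn5 and Slco1a4 in both). Oligodendrocyte precursor markers stayed within 104 CPM in sensitive and 8.62 CPM in insensitive cells, with Gpr17 at 0 in both. Over the 96 cells the Spearman correlation of a member with the summed markers of a non-neuronal list lay between -0.23 (Gabrb1 with microglia) and 0.27 (Gabbr2 with oligodendrocyte precursors), and that with the neuronal list between 0.12 and 0.33. These points share library and depth.

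Gabra3, an alpha subunit best known from monoaminergic and reticular thalamic neurons, was the member with the clearest split between sensitive and insensitive cells. It was detected in 1 of 36 sensitive cells (2.78%, interval 0.0703 to 14.5%), against 12 of 42 insensitive cells (28.6%, 15.7 to 44.6%). It was the 1 member of 7 whose intervals did not overlap. Of the eligible genes, 5.22% had an interval wholly lower in sensitive cells and 0% one wholly higher. Gabra3 was eligible here only through insensitive cells, the group where it was higher, so the limit for eligible genes favours such a split. The 5.22% was taken under the same limit. The median eligible gene was detected in 25% of sensitive and 40.5% of insensitive cells.

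By class, Gabra3 was detected in 1 of 21 warm-sensitive cells, with a lowest value and a median of 0 and a highest value of 422.9 CPM, in warm-sensitive cell 10; the next warm-sensitive cell stood at 6.71 CPM. The 5 cold-sensitive cells had 0, 0.409, 9.49, 0 and 0 CPM, so that 0 of 5 passed 10 CPM, which allows a share of up to 60% taken as 3 of the cells and of up to 52.2% by the exact interval. In silent sensitive cells 9 of 10 values were 0 and the highest was 0.817 CPM, and 0 of 10 detected cells allows up to 30% taken as 3 cells and up to 30.8% by the exact interval. Insensitive cells ran from 0 through a median of 0 to 257.4 CPM, with 7 of 24 detected, and silent insensitive cells from 0 through 1.05 to 330.4 CPM, with 5 of 18 detected. The detected insensitive cells of both classes stood at 16.7 to 330.4 CPM, and above 10 CPM the groups overlapped through the single high warm-sensitive cell. The 12 insensitive cells with Gabra3 came from 7 of the 8 letters that stand in the cells' titles, whose meaning the labels do not give.

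In mean log2(CPM + 1) Gabra3 was at 0.57 in sensitive and 2.07 in insensitive cells, a difference of -1.50 (-0.53 relative to the median gene). Within title letters the difference was -1.45. The relative value ran from -1.31, with no limit on low genes, to 0.02 in the 10 sensitive and 11 insensitive cells under 1000 CPM of every glial list. In those cells Gabra3 was thus no lower than the median gene. Warm-sensitive cells differed from insensitive cells by -1.18 (0.19 relative to the median gene), so in that pair Gabra3 was lower by about as much as the median gene. Other ways of processing gave -0.84 to 0.98 relative there, the highest in the 7 warm-sensitive and 6 insensitive cells low in glial markers. Silent sensitive cells differed from silent insensitive cells by -2.18 (-1.53 relative), and leaving out any 1 of the 28 cells left this between -1.74 and -1.35; with a pseudocount of 10 CPM in place of 1 it was -0.64 relative. The separation of the intervals ended when any 1 of the 12 insensitive cells with Gabra3 was left out (26.8%, lower bound 14.2%, against an upper bound of 14.5% in sensitive cells). The intervals also overlapped under each of the 5 other ways of detection. At 5 counts or more the shares were 8.33% of sensitive and 31.0% of insensitive cells, at 1 count or more 25% of sensitive and 47.6% of insensitive cells, and after thinning every cell to 100000 counts outside Rn45s 14.3% of sensitive and 33.3% of insensitive cells.

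Gabra2 encodes an alpha subunit that is often found at synapses on the axon and soma. Its lowest value was 0 in every class. Warm-sensitive cells had a median of 0.811 and a highest value of 907.0 CPM, and insensitive cells 19.4 and 422.9 CPM. The 5 cold-sensitive cells had 2.56, 138.4, 61.7, 0 and 0.639 CPM. Silent sensitive cells had a median of 0.658 and a highest value of 984.9 CPM, and silent insensitive cells 0.775 and 462.0 CPM. The classes overlapped throughout, and the 2 highest cells of all were sensitive ones. Gabra2 was detected in 13 of 36 sensitive (36.1%) and 18 of 42 insensitive cells (42.9%), a difference of -0.30 (0.68 above the median gene). The relative value ran from -0.32, in the 10 sensitive and 11 insensitive cells under 1000 CPM of every glial list, to 1.003 after thinning. Warm-sensitive cells had it in 7 of 21 and insensitive cells in 13 of 24, a difference of -1.29 that was close to the median gene's (0.07 relative). In silent cells the order was the other way, with 4 of 10 silent sensitive and 5 of 18 silent insensitive cells and a difference of 1.20 (1.85 relative). That difference turned to -0.30 within title letters (0.28 relative).

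Gabra5 encodes an alpha subunit best known from extrasynaptic channels that carry a steady current. Warm-sensitive cells ran from 0 through a median of 0 to 355.8 CPM, and insensitive cells from 0 through 0.717 to 227.2 CPM. Cold-sensitive cells, 5 in all, had 43.4, 0, 20.8, 0 and 0 CPM. Silent sensitive cells ran from 0 through 0 to 388.4 CPM, and silent insensitive cells from 0 through 0 to 221.4 CPM. Gabra5 was detected in 3 of 21 warm-sensitive cells (14.3%, 3.05 to 36.3%), against 11 of 24 insensitive cells (45.8%, 25.5 to 67.2%), the largest gap of the 7 members in that pair, with intervals that overlap. Mean log2(CPM + 1) differed by -1.91, a relative value of -0.55. Other ways of processing gave relative values from -1.57, with no limit on low genes, to 1.73 in the 7 warm-sensitive and 6 insensitive cells under 1000 CPM of every glial list, so its direction against the median gene was not stable. Among silent cells it was detected in 3 of 10 sensitive and 3 of 18 insensitive cells, a difference of 0.78 (1.43 relative) that came to 0.86 relative without silent sensitive cell 3.

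**Figure D2:**
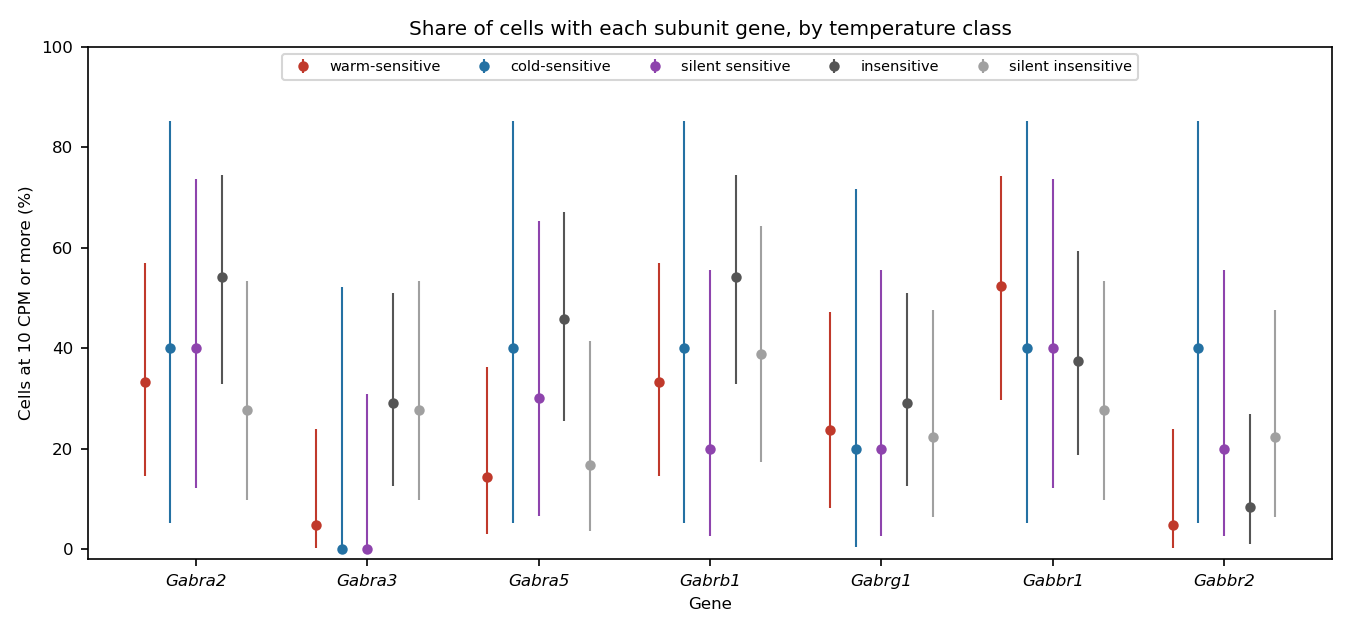
Percentage of cells with each gene at 10 CPM or more, by temperature class, with exact 95% intervals for counting error; from left to right in each gene, warm-sensitive (21 cells), cold-sensitive (5), silent sensitive (10), insensitive (24) and silent insensitive (18). Gabra3 is at 4.76%, 0%, 0%, 29.2% and 27.8%, and the intervals of all classes overlap for every gene.

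Gabrb1 encodes a beta subunit, which forms part of the GABA binding site together with an alpha subunit. Warm-sensitive cells ran from 0 through 0.699 to 528.0 CPM, and insensitive cells from 0 through 35.5 to 584.1 CPM. The 5 cold-sensitive cells had 1.28, 0.409, 126.0, 1.16 and 108.0 CPM. Silent sensitive cells ran from 0 through 0 to 440.8 CPM, and silent insensitive cells from 0 through 0.900 to 480.3 CPM. Gabrb1 was detected in 11 of 36 sensitive (30.6%) and 20 of 42 insensitive cells (47.6%). The difference of -1.23 was close to that of the median gene (-0.25 relative), and stood at -1.78 relative in the 10 sensitive and 11 insensitive cells low in glial markers. In warm-sensitive cells it was detected in 7 of 21 and in insensitive cells in 13 of 24, a difference of -1.70 (-0.34 relative). Here the relative value ran from -1.36 with no limit on low genes to 1.73 in the cells low in glial markers, so both its direction and its size depended on the cells and genes taken in.

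Gabrg1 encodes a gamma subunit with a limited distribution in the brain that includes the hypothalamus. Warm-sensitive cells ran from 0 through 0.751 to 542.6 CPM, and insensitive cells from 0 through 0.740 to 466.5 CPM. The 5 cold-sensitive cells had 85.6, 0, 0, 0 and 0.639 CPM. Silent sensitive cells ran from 0 through 0 to 115.4 CPM, and silent insensitive cells from 0 through 0.290 to 340.0 CPM. In the pooled groups the intervals overlapped almost fully, with Gabrg1 detected in 8 of 36 sensitive (22.2%, 10.1 to 39.2%) and 11 of 42 insensitive cells (26.2%, 13.9 to 42.0%). Warm-sensitive cells differed from insensitive cells by -0.04 (1.32 relative to the median gene), and by 0.997 relative without warm-sensitive cell 6; 10 other ways of processing gave 0.30 to 2.88 relative.

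Gabbr1, the GABA-binding subunit of the GABA-B receptor, was the member farthest above the median gene in warm-sensitive and in all sensitive cells. Warm-sensitive cells ran from 0 through a median of 18.5 to 676.3 CPM, and insensitive cells from 0 through 2.63 to 362.1 CPM. The 5 cold-sensitive cells had 0, 57.7, 1.46, 689.9 and 3.2 CPM. A total of 6 warm-sensitive cells and 3 insensitive cells were above 100 CPM, and both classes also held cells at 0. Silent sensitive cells ran from 0 through 4.99 to 344.6 CPM, and silent insensitive cells from 0 through 1.67 to 339.4 CPM.

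Gabbr1 was detected in 11 of 21 warm-sensitive cells (52.4%, 29.8 to 74.3%) and 9 of 24 insensitive cells (37.5%, 18.8 to 59.4%), intervals that overlap. At 1 count or more the shares were close, 71.4% of warm-sensitive and 70.8% of insensitive cells. Mean log2(CPM + 1) was 3.79 ± 3.51 in warm-sensitive and 2.55 ± 2.60 in insensitive cells (SD over cells), a difference of 1.24, which is 2.60 above the median gene. A difference above 0 was found for 5.11% of the eligible genes in this pair. Leaving out any 1 of the 45 cells left the relative difference between 2.31 and 2.90, and 10 other ways of processing gave 1.58 to 4.17; within title letters the difference was 1.65. Summed over cells, Gabbr1 was at 140.3 CPM (135.8 to 144.8) in warm-sensitive and 26.0 CPM (24.4 to 27.6) in insensitive cells. Warm-sensitive cell 2 held 36.3% of that warm-sensitive count, and without it the sum was 96.7 CPM. The median Rn45s share and the number of genes given above differed between these classes; counted on totals without Rn45s, the difference was 1.58. Summed microglia markers had a median of 896.6 CPM in warm-sensitive and 495.8 CPM in insensitive cells, and astrocyte markers 723.1 CPM in warm-sensitive and 946.8 CPM in insensitive cells. In the 7 warm-sensitive and 6 insensitive cells under 1000 CPM of every glial list, Gabbr1 stood at 3.69 relative to the median gene.

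In all 36 sensitive cells Gabbr1 was detected in 17 (47.2%) and in all 42 insensitive cells in 14 (33.3%), with a difference of 1.02 (1.99 relative to the median gene; a difference above 0 was found for 7.82% of the eligible genes). In cold-sensitive cells the difference from insensitive cells was 1.19 (1.71 relative) and came to -0.18 relative without cold-sensitive cell 4, so it rested on that cell. Markers of microglia were higher in the same pair: all 9 eligible ones stood 1 or more above the median gene (median 2.25 relative), and their summed level had a median of 2784.7 CPM in cold-sensitive and 495.8 CPM in insensitive cells. Their part in the result was not tested. Silent sensitive cells differed from silent insensitive cells by 0.48 (1.14 relative), and leaving out any of 8 of the 28 cells brought this under 1. By the share of cells, the order was warm-sensitive (52.4%), cold-sensitive and silent sensitive (40% each), insensitive (37.5%) and silent insensitive (27.8%). For each of the 5 GABA-A members the insensitive class had the highest share of the 5 classes, as it had for 48% of the 3733 genes eligible between all sensitive and all insensitive cells, and for Gabbr2 the cold-sensitive class had it. That order changed with the limit: on totals without Rn45s, Gabrg1 was detected in 42.9% of warm-sensitive and 29.2% of insensitive cells, and at 1 count or more Gabrb1 was read in 100% of cold-sensitive and 79.2% of insensitive cells. For all 7 members the intervals of neighbouring classes in this order, and of the highest and lowest class, overlapped.

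Gabbr2, the partner that carries the GABA-B receptor to the surface, was detected in few cells of any class and was not an eligible gene in any of the 6 comparisons. It was detected in 1 of 21 warm-sensitive cells, at 63.6 CPM, with the next at 2.04 CPM. Cold-sensitive cells, 5 in all, had 0, 177.7, 0, 91.3 and 3.2 CPM. Silent sensitive cells ran from 0 through 0 to 335.2 CPM with 2 of 10 detected, insensitive cells from 0 through 0 to 45 CPM with 2 of 24, and silent insensitive cells from 0 through 0 to 89.1 CPM with 4 of 18. Pooled, it was detected in 5 of 36 sensitive (13.9%, 4.67 to 29.5%) and 6 of 42 insensitive cells (14.3%, 5.43 to 28.5%). In mean log2(CPM + 1) cold-sensitive cells stood at 3.22 and insensitive cells at 0.61.

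**Figure D3:**
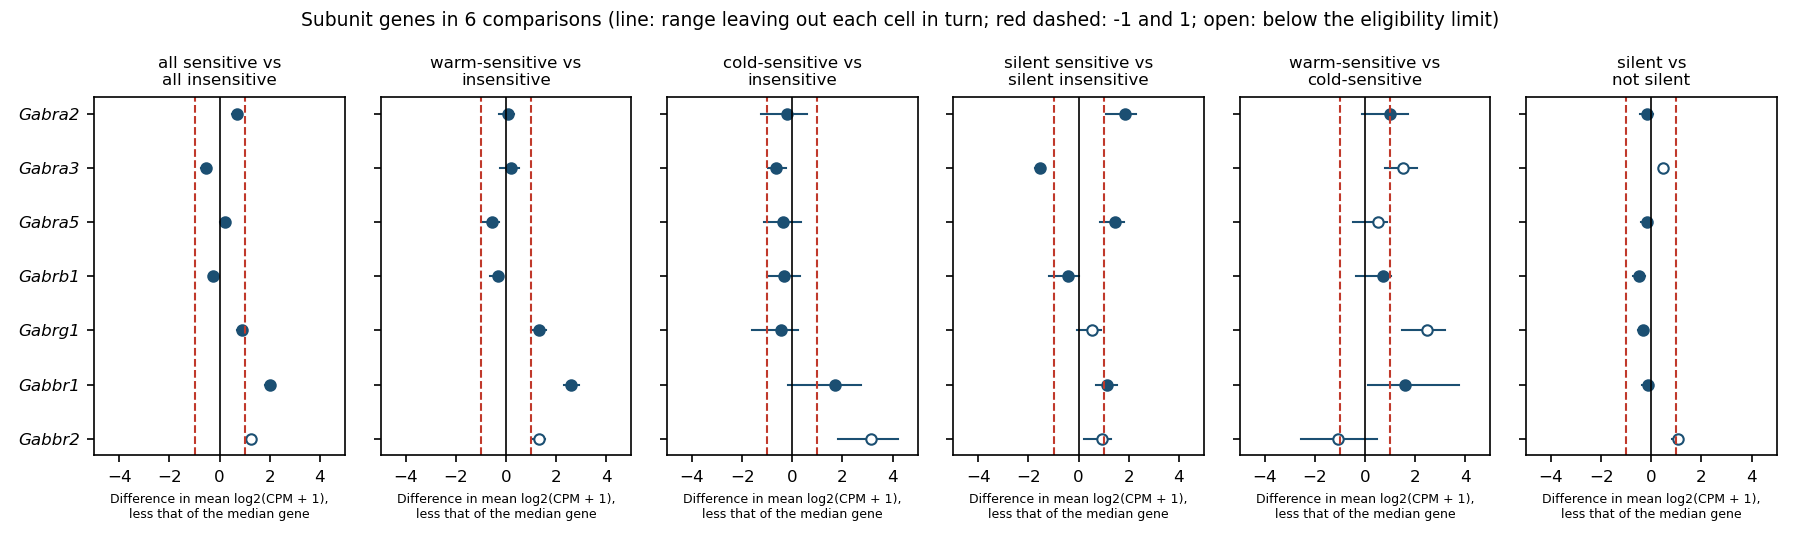
Difference of each gene in mean log2(CPM + 1), first minus second class of the panel title, less that of the median eligible gene, in 6 comparisons; lines span the values with each cell left out in turn, dashed lines mark -1 and 1, and open points are genes under the limit for eligible genes. Gabbr1 is at 2.60 in warm-sensitive against insensitive cells, and Gabra3 at -1.53 in silent sensitive against silent insensitive cells.

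Counted over the members that were eligible, the number that stood 1 or more from the median gene varied with the comparison. Between all sensitive and all insensitive cells, 1 of 6 eligible members (Gabbr1) was 1 or more above it, against 7.47% of the 3733 eligible genes, and 0 were 1 or more below, against 6.56%. Between warm-sensitive and insensitive cells, 2 of 6 (Gabbr1 and Gabrg1) were above, against 10% of 4601 genes, and 0 below, against 13%. Between cold-sensitive and insensitive cells, 1 of 6 (Gabbr1) was above, against 22.8% of 4644 genes, and 0 below, against 21.2%. These comparisons share the insensitive cells. Between silent sensitive and silent insensitive cells, 3 of 5 (Gabra2, Gabra5 and Gabbr1) were above, against 23% of 3459 genes, and 1 (Gabra3) below, against 18%. Of these, Gabra5 was eligible only through silent sensitive cells (3 of 10, against 3 of 18). Gabra3 was eligible only through silent insensitive cells (5 of 18, against 0 of 10). Each is the group where that gene was higher, so the limit for eligible genes favours these calls. Between warm-sensitive and cold-sensitive cells, 2 of 3 (Gabra2 and Gabbr1) were above, against 29.2% of 2199 genes, and 0 below, against 26.2%. All 3 were eligible only through warm-sensitive cells, since each was detected in 2 of 5 cold-sensitive cells. For Gabbr1 this is the group with the larger share (11 of 21 cells), so the limit favours its call. Gabra2 was lower in warm-sensitive cells there, with a difference of -0.55. It was at 1.003 relative to the median gene, and leaving out any of 24 of the 26 cells brought this under 1. Gabbr1 differed by only 0.05 there (1.61 relative), against a median gene at -1.56.

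Between the 28 silent and the 50 other cells no eligible member stood apart: 0 of 5 eligible members were 1 or more above the median gene, against 7.9% of 3481 genes, and 0 below, against 7.56%. The eligible members lay between -0.47 (Gabrb1) and -0.15 (Gabbr1) relative to it. Gabbr2, below the limit for eligible genes, was detected in 6 of 28 silent cells (21.4%, 8.30 to 41.0%) and 5 of 50 other cells (10%, 3.33 to 21.8%), and stood at 1.07 relative. In the 8 silent and 13 other cells under 1000 CPM of every glial list, Gabra5 was at 1.80 and Gabrb1 at 2.89 relative. The median over all 7 members relative to the median gene was 0.68, 0.19, -0.33, 0.91, 1.003 and -0.15 over the 6 comparisons, taken as they are given here.

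Most cells with Gabbr2 also had Gabbr1, but not the reverse. Both were detected in 14 cells, which is 82.4% of the 17 cells with Gabbr2 and 32.6% of the 43 with Gabbr1. Gabbr1 alone was detected in 29 cells, Gabbr2 alone in 3, all of them silent, and neither in 50. In warm-sensitive cells Gabbr1 alone was detected in 10 of 21 cells and both in 1, whereas in cold-sensitive cells it was alone in 0 of 5 and both were detected in 2. In insensitive cells Gabbr1 was alone in 7 of 24 and both were detected in 2. The number of cells with both was 30 at 1 count or more and 3 at 100 CPM or more, so it depends on the limit of detection.

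**Figure D4:**
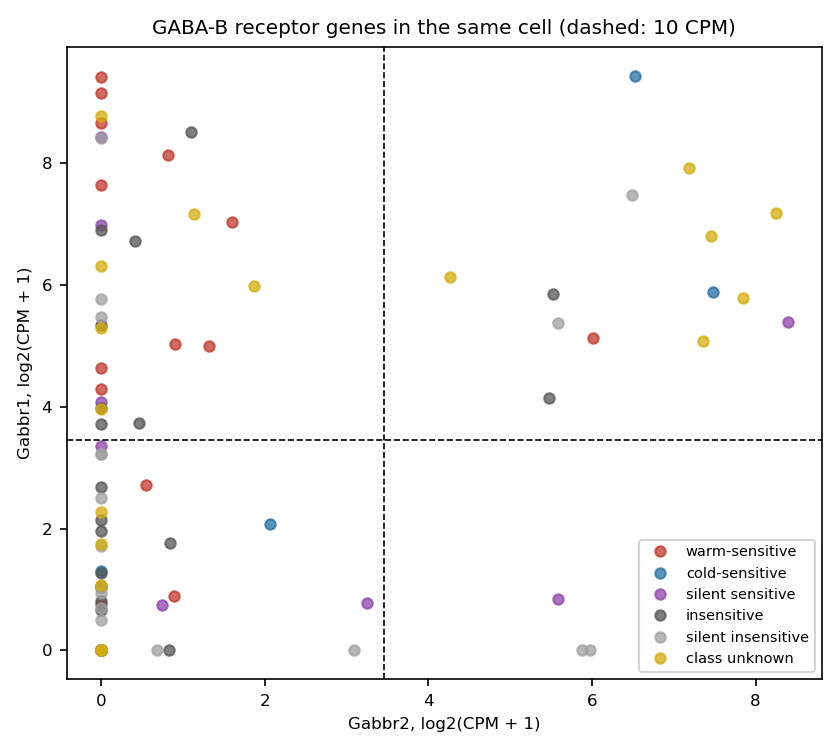
Gabbr1 against Gabbr2 in the same cell, both as log2(CPM + 1), for 96 cells coloured by temperature class; dashed lines are 10 CPM. The upper right field holds 14 cells with both genes, the upper left 29 with Gabbr1 alone and the lower right 3 with Gabbr2 alone.

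A full set of GABA-A subunits from among the members was rare in a single cell. Other alpha, beta and gamma subunit genes are left out of this count, so it does not give the share of cells with a whole receptor. Of the 14 other GABA-A subunit genes, the most widely detected was found in 59 of 96 cells. At least 1 of the 5 GABA-A genes was detected in 67 of 96 cells, an alpha gene in 55, an alpha gene with Gabrb1 in 28, and an alpha gene with both Gabrb1 and Gabrg1 in 14. The last combination was found in 2 of 36 sensitive (5.56%, 0.680 to 18.7%) and 8 of 42 insensitive cells (19.05%, 8.60 to 34.1%). Gabra2 and its chromosome neighbour Gabrg1 were both detected in 18 cells, which is 45% of the cells with Gabra2 and 66.7% of those with Gabrg1. Gabra2 and Gabrb1 were both detected in 23 cells, 57.5% and 60.5% of the cells with each. In all, 13 of the 17 cells with Gabra3 also had Gabra2.

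All 3 alpha genes were detected together in 6 cells, 5 insensitive and 1 silent insensitive, against 0 of 36 sensitive cells, which allows a share of up to 8.33% taken as 3 cells and of up to 9.74% by the exact interval. Since Gabra3 was detected in 1 of 36 sensitive cells, at most 1 of them could hold all 3. This count therefore repeats the Gabra3 split and adds no separate contrast. At least 5 members were detected in 11 cells, of which 1 was sensitive, 7 were insensitive or silent insensitive and 3 were of unknown class. No member was detected in 16 cells. The median number of members per cell was 2 in cold-sensitive, silent sensitive and insensitive cells and 1 in warm-sensitive and silent insensitive cells. Over the 96 cells this number had a Spearman correlation of 0.61 with the number of genes with a count and of -0.55 with the Rn45s share, so cells of fuller libraries showed more members; the part of this in the class differences was not tested.

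**Figure D5:**
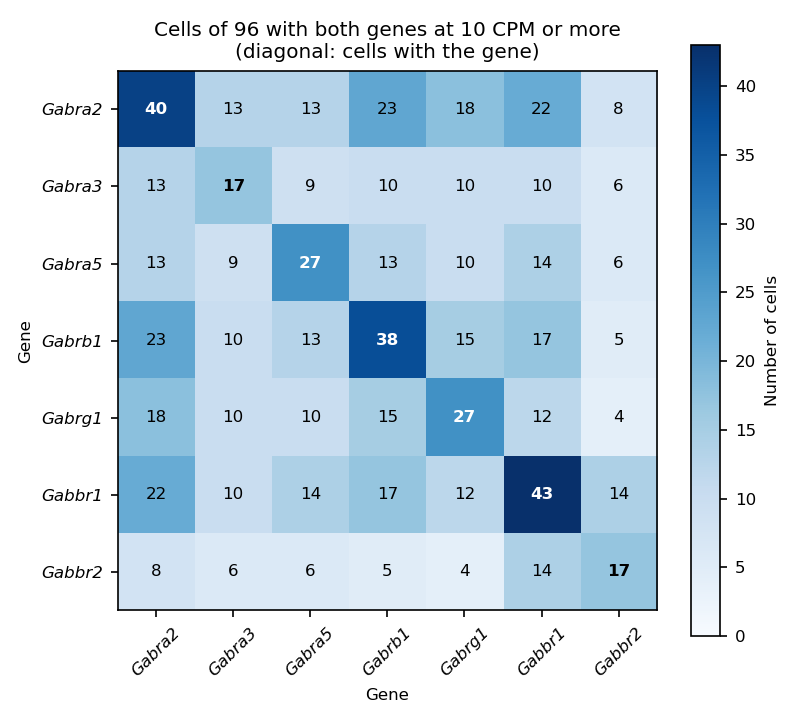
Number of the 96 cells in which both genes of a pair were at 10 CPM or more; the diagonal gives the number of cells with each gene. The largest overlap is Gabra2 with Gabrb1, 23 cells, and Gabbr2 shares 14 of its 17 cells with Gabbr1.

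Cells with transcripts for GABA synthesis carried the receptor genes as well. Of the 66 cells with Gad1 or Gad2, which make GABA, Gabra2, Gabrb1 and Gabbr1 were each detected in 29 (43.9%), Gabrg1 in 21, Gabra5 in 18, Gabra3 in 14 and Gabbr2 in 12. Of the 35 cells with Slc17a6, a vesicular glutamate transporter, Gabbr1 was detected in 20 (57.1%), Gabrb1 in 19, Gabra2 and Gabra5 in 14 each, Gabrg1 in 10, Gabra3 in 6 and Gabbr2 in 4. The sets share 19 cells with both.

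Of the 14 other GABA-A subunit genes, 9 were detected in at least 1 cell and 5 in none. Of these, 5 were eligible between all sensitive and all insensitive cells: 1 was 1 or more above the median gene and 0 were below, with Gabrb2, another beta subunit, highest at 1.06. Over all 3733 eligible genes of this comparison, 7.47% were 1 or more above and 6.56% were 1 or more below. These shares apply to each list that follows, and the lists are small. Of 16 genes for anchoring and trafficking of GABA-A receptors, 10 were eligible, 1 above and 2 below. Nsf, a membrane fusion ATPase, was lowest at -1.29. Of 15 partners and effectors of the GABA-B receptor, 6 were eligible, 0 above and 2 below, between 0.83 for Gnao1, a G protein alpha subunit, and -1.19 for Gnb5, a G protein beta subunit. Of 8 genes for GABA synthesis, transport and breakdown, 4 were eligible, 1 above and 1 below, with Abat, which breaks down GABA, lowest at -1.39. Of 6 chloride transport genes, 2 were eligible and 0 stood 1 or more away. In warm-sensitive against insensitive cells Gad1 was at 2.67, the highest of its list, and Gnai1, an inhibitory G protein alpha subunit, at -2.07, the lowest of its list. In that pair 10% of eligible genes were 1 or more above the median gene and 13% below. Gad1 was also highest of its list in cold-sensitive against insensitive cells, at 1.61. In silent sensitive against silent insensitive cells it was the lowest of its list, at -2.24, so its direction differed between the pairs.

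The genes most like each member over the 96 cells were looked for among 2901 genes detected in at least 25% of cells, by Pearson's r of log2(CPM + 1). For Gabra3 these were St3gal5 (r = 0.55, rho = 0.42) and Rab3gap2 (r = 0.49, rho = 0.38), against a median r of 0.19 over all genes ranked. For Gabbr1 they were Rnf220 (r = 0.39, rho = 0.34) and Cab39 (r = 0.39, rho = 0.34), against a median of 0.06. For Gabbr2 they were Stxbp5l (r = 0.44, rho = 0.26) and Arnt2 (r = 0.41, rho = 0.38). For Gabra2 they were Cds2 (r = 0.54) and Nptx1 (r = 0.49), and for Gabra5 Mrpl32 (r = 0.45) and Drg1 (r = 0.45). For Gabrb1 they were Spint2 (r = 0.40) and Slc5a3 (r = 0.40), and for Gabrg1 Tmem126a (r = 0.49) and Tpd52l2 (r = 0.46). Without the 2 cells farthest from the member's median, r lay between 0.35 and 0.54. All of these are weak to moderate relations over sparse counts that share depth and library.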

How the data were processed

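RNA of 96 preoptic neurons was measured after patch clamp, per the labels' protocols (Smart-seq2, Nextera XT). The authors deposited raw read counts per gene and cell, and normalized signal values for the same cells. FastQC, STAR, edgeR and mm10 are named in the submitters' processing notes; the counting step and use of strand are not stated there. Groups follow the temperature class of the labels; cell numbers only name cells, and 0 pairs of cells held identical counts. CPM are counts over the cell's total, Rn45s included, times 1000000. Shares have Clopper-Pearson and sums Poisson 95% intervals; reads are not independent molecules, as the libraries hold no molecular identifiers. Differences are of mean log2(CPM + 1), which understates how much low genes change, less the median over eligible genes.

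Alternatives were detection at 1 or 5 counts or 100 CPM, pseudocounts of 0.1 and 10 CPM, TMM sizes (edgeR 4.0.16, R 4.3.3), the deposited normalized signal, totals without Rn45s, thinning to 100000 counts outside Rn45s (1 warm-sensitive cell too shallow), no limit on low genes, differences within title letters, and leaving out each cell. Chosen after seeing the data were leaving out cells over 75% Rn45s and cells with 1000 CPM or more of a glial list. The members and gene lists were chosen with earlier results of these data known. All 7 members are named, with the 2 genes most correlated with each and the highest or lowest of each list; some listed genes are not reported here. The code for the differences was run on simulated counts in which the changed genes stood at 100 CPM or more. That run did not cover changes in lower genes such as Gabra3 and Gabbr2. Gabbr1 also stood under 100 CPM over the summed counts of all 96 cells, at 65.7 CPM. Python 3.11.15, pandas 2.3.3, scipy 1.17.1 and matplotlib 3.10.9 were used.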

Additional observations from a re-analysis of the deposited data

Results flagged for a closer look

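Of 14 groups of 5 or 10 cells checked, 3 held 1 cell far from the others on the log2(CPM + 1) scale. Chance gives about 1 in 20 for continuous values; most of these values were 0, and no rate was computed for such data. Gabra3 in cold-sensitive cell 3 stood at 3.39 (9.49 CPM, 26 counts), with the next cold-sensitive cell at 0.50. Gabra3 in silent sensitive cell 2 stood at 0.862, which is 1 count, with the other 9 at 0. Gabrg1 in cold-sensitive cell 1 stood at 6.44 (85.6 CPM, 134 counts), with the next at 0.71.

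In the 18 cells of unknown class, which entered no comparison, 3 members were detected in a larger share than the upper bound of the interval of all insensitive cells, as did 15.3% of the 4568 genes eligible in either group. Gabbr1 was detected in 12 of 18 (66.7%, 41.0 to 86.7%), against 33.3% of the insensitive cells (upper bound 49.5%). Gabrg1 was detected in 8 of 18 (44.4%, 21.5 to 69.2%), against 26.2% (upper bound 42.0%). Gabbr2 was detected in 6 of 18 (33.3%, 13.3 to 59.0%), against 14.3% (upper bound 28.5%). For all 3 members the intervals of the unknown and the insensitive cells overlapped. The differences were not tested. These cells also had the lowest median Rn45s share, 42.2%, and a median of 3 members per cell; the part of this in their shares was not tested.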

How the results depend on the processing

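No paired analysis was possible because the cell numbers only name cells and no result comes from a test. Relative to the median gene, Gabbr1 kept its direction and its call in warm-sensitive and in all sensitive cells under every alternative run. Each value below is a count of eligible members or the median over all 7 members. The cause of a change was not tested, and some alternatives also change which cells or genes enter. Members 1 or more above the median gene in all sensitive against all insensitive cells numbered 2 with a pseudocount of 0.1 CPM, 3 when thinned and 3 without glia-rich cells (1000 CPM or more of a glial list), against 1; members below numbered 2 with no limit on low genes and 1 without glia-rich cells, against 0, and the median was -0.10 with no limit. In warm-sensitive against insensitive cells 1 was above, against 2, with a pseudocount of 10 CPM, no limit, within letters and without glia-rich cells; 2 were below with no limit and 1 when thinned; the median was -0.84 with no limit and 1.73 without glia-rich cells. In cold-sensitive against insensitive cells 2 were above with no limit and when thinned, against 1, and 2 below within letters. In silent sensitive against silent insensitive cells 1 was above with a pseudocount of 10 CPM or no limit, against 3, and 0 below with 10 CPM, against 1. In warm-sensitive against cold-sensitive cells 1 was above with a pseudocount of 0.1 CPM, no limit, within letters or without cells over 75% Rn45s, and 0 with 10 CPM, against 2; 1 was below with no limit and when thinned; the median turned to -0.45 with no limit and -0.072 when thinned. In silent against other cells 1 was above with totals without Rn45s, when thinned and without cells over 75% Rn45s, and 2 without glia-rich cells, against 0. Cells with both GABA-B genes numbered 30 at 1 count and 3 at 100 CPM, against 14, and the median share over members and classes was 54.2% at 1 count, against 29.2%.

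In warm-sensitive against cold-sensitive cells Gabra2 turned to -0.45 with no limit and -0.49 within letters, and Gabra3 to -0.072 when thinned. Leaving out each cell gave Gabbr1 in cold-sensitive cells -0.18 (without cold-sensitive cell 4) to 2.76, Gabra2 in warm against cold -0.13 (without cell 5) to 1.71 and Gabbr2 there -2.55 to 0.47 (without cell 4). With each cell left out, members above numbered 1 in all sensitive, 1 to 2 in warm-sensitive, 0 to 1 in cold-sensitive, 1 to 3 in silent sensitive, 0 to 2 in warm against cold and 0 in silent against other cells. Members below numbered 0 to 2 in cold-sensitive and 0 to 2 in silent sensitive cells, and 0 otherwise. The medians ran from 0.48 to 0.83, from -0.21 to 0.50, from -0.62 to 0.34, from 0.69 to 1.12, from 0.14 to 1.16 and from -0.32 to 0.06 in that order. Classes of 5 to 24 cells leave wide intervals.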
